A study of Mus musculus with 14 samples.

Results

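The genes examined here encode the core of the mouse spliceosome and the SR family of splicing factors. They were taken by symbol: every protein-coding gene whose symbol starts with Snrp, Sf3a, Sf3b, Prpf or Srsf, plus Sart1, Sart3, U2af1 and U2af2. The rule gave 49 genes of the 21900 protein-coding genes in the RefSeq table. All 49 had at least 1 H3K4me3 summit within 2 kb of the gene, against 15248 of the 21900 coding genes in all. Each gene is represented by its strongest summit, the one with the highest mean over the 13 ChIP libraries, and all 49 summits passed the filter on low reads.

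The 13 libraries hold chromatin of the prefrontal cortex, precipitated with an antibody to H3K4me3. All mice were C57BL/6J males, adult and 10 to 12 weeks old. CSDS30 (5 libraries) came from mice given 30 days of chronic social defeat stress, and CSDS10 (5 libraries) from mice given 10 days. In this procedure a mouse meets an unfamiliar aggressive CD1 mouse briefly each day and otherwise lives beside one behind a perforated barrier. The control group (3 libraries) lived in divided cages and met no aggressor. Tissue was taken 24 h after the last session, and both defeated groups had gone through behavioural tests shortly before. The labels do not say whether each library is 1 animal or a pool, nor how long controls were housed, so p-values measure only the spread between these libraries. The tissue was not sorted: fewer cells carrying a mark and less of the mark per cell cannot be told apart in any value below.

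The spliceosome removes introns from pre-mRNA. Small nuclear RNAs form particles with a ring of Sm proteins and with particle-specific proteins. U1 marks the start of an intron, while U2, helped by U2AF, SF3a and SF3b, marks its branch site. The tri-snRNP of U4, U5 and U6, held together by Prpf and Sart proteins, then joins and is rearranged into the catalytic machine. SR proteins bind exons and help to choose splice sites. All dividing and resting cells need this machinery, and neurons are known for extensive alternative splicing. Active genes carry the histone mark H3K4me3 around their start.

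The values are the authors' normalised read counts, that is, reads at a summit divided by 1 size factor per library. Reads on all 153207 summits numbered from 4512817 to 10887911 per library, and 1 read was worth 0.699 to 1.69 units. The median correlation of a library with the others was 0.794 for CSDS30 replicate 2 and 0.808 for CSDS10 replicate 2, against 0.828 to 0.879 for the rest. The spread of log2 values over summits was lowest in CSDS30 replicate 2 (SD 0.875) and highest in CSDS10 replicate 2 (SD 1.12), so the main counts are also given without them. All 6 excitatory neuron markers and all 5 inhibitory neuron markers had a summit. Of 6 markers of other tissues only Myod1 had one, at a mean of 21.8, while Alb, Cdx2, Hba-a1, Ins2 and Nanog had none. All 6 markers of striatal neurons had one too, with sums of 327 to 455 in CSDS30, 352 to 532 in CSDS10 and 397 to 418 in control libraries. Mog among oligodendrocyte markers, and Cx3cr1, Csf1r and Aif1 among microglial markers, had none. The 3 microglial markers with a summit summed to 58.7 to 90.6 in CSDS30, 56.5 to 87.0 in CSDS10 and 46.9 to 54.5 in control libraries, none at an unadjusted limma p under 0.05. Excitatory markers summed to 261 to 405, 276 to 446 and 291 to 347 in the same groups. Inhibitory markers summed to 161 to 204 in CSDS30, 100.2 to 187 in CSDS10 and 157 to 168 in control. Of these 5, 4 lay above 0 in CSDS30 against CSDS10 (median 0.35, beside 31.6% of coding genes above 0). Of them 1 was at an unadjusted limma p under 0.05 (background 0.704%). In CSDS10 against control 4 lay below 0 (median -0.26, beside 46.7% of coding genes below 0), none at that level. The 1 inhibitory marker above 0 there was at that level (background 1.78%). The sums were 172 to 261, 171 to 210.3 and 205 to 228 for 4 oligodendrocyte markers, and 113 to 191, 123 to 174 and 117 to 198 for 4 endothelial markers, in CSDS30, CSDS10 and control. In CSDS30 against CSDS10 all 4 of these oligodendrocyte markers and 3 of 4 endothelial markers lay above 0, beside 31.6% of coding genes. Of them 1 endothelial marker was at an unadjusted limma p under 0.05 (background 0.704%). Excitatory markers split into 3 above 0 and 3 below, 1 of them lower at that level (background 9.03%). All 6 striatal markers and 4 of 5 astrocyte markers lay below 0, beside 68.4% of coding genes, none at that level. The part of cell makeup in the splicing gene values was not tested.

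The splicing genes carried strong H3K4me3 within a narrow range. The median of their means over the 13 libraries was 119 units (interquartile range 103 to 134), against 97.6 (67.7 to 117) for all coding genes with a summit. Of the 49, 40 lay above the median of coding genes and 30 above its percentile 75, and their median percentile was 77.7. Means of 46 genes lay between 80 and 170. These levels describe the genes, with no test, and they compare summits on the assumption that the authors counted reads in equal windows.

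Prpf8, the central scaffold of the U5 particle and of the catalytic core, stood highest at a mean of 205, above 99.97% of coding genes. Snrpf (167), a member of the Sm ring, Sf3b2 (160.0), a subunit of SF3b, and Prpf4 (157), a U4/U6 protein, followed. At the low end were Srsf12, an SR protein (62.9), and Snrpn (63.0), the neuronal Sm protein of an imprinted locus. U2af2 (88.3), which binds the polypyrimidine tract, and Prpf6 (88.6), which bridges U5 and U4/U6, came next. The SDs within groups of Srsf12 (9.47 in CSDS30, 17.0 in CSDS10 and 12.8 in control) and of Snrpn (15.4, 7.72 and 3.58 in the same groups) exceed the gap between these neighbouring means. Levels of the 8 families overlapped: their medians ran from 114 for U2AF to 139 for the Sart pair.

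**Figure D1:**
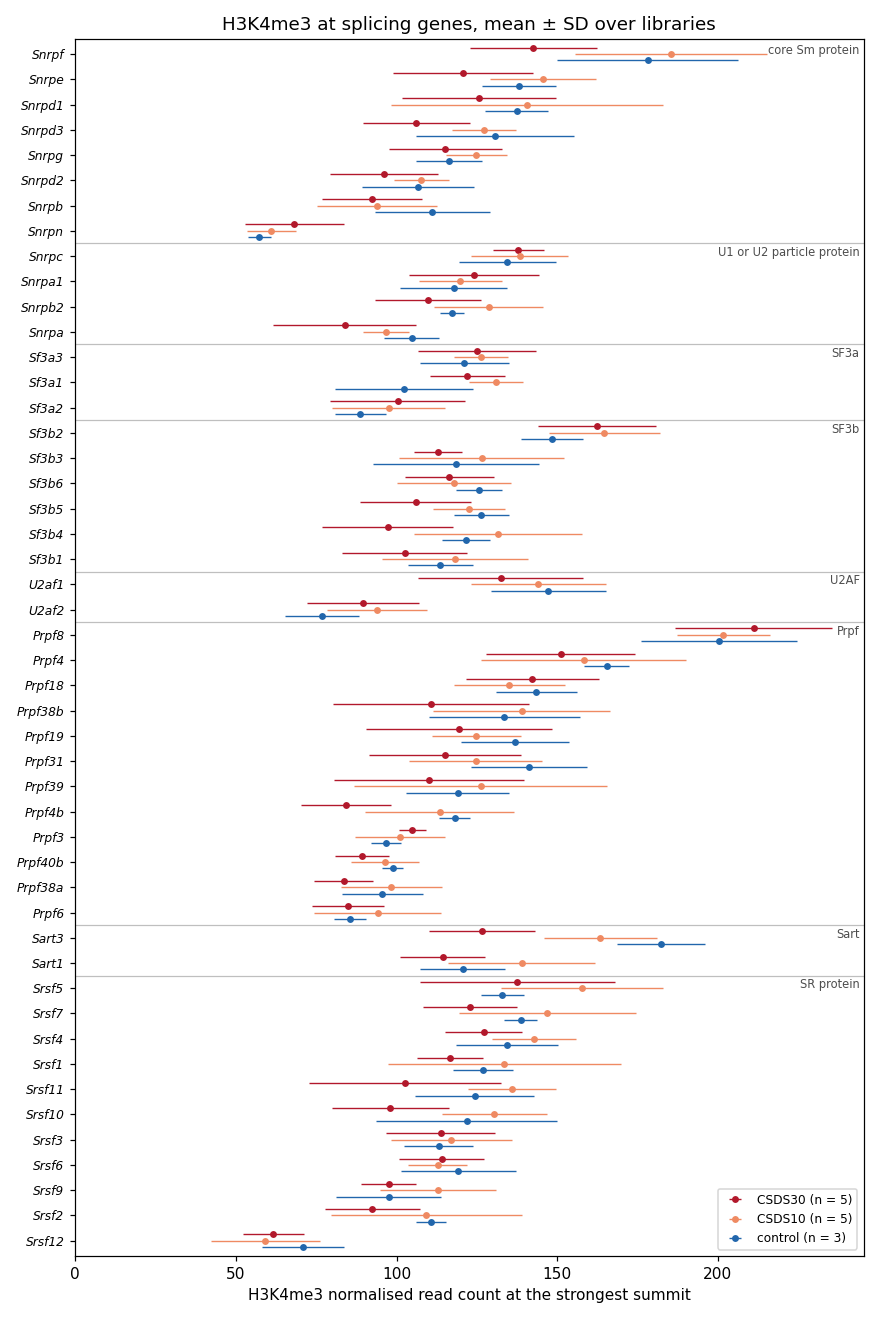
H3K4me3 at the strongest summit of 48 of the 49 splicing genes, in normalised read counts, grouped by role. Points are group means and lines are 1 SD over libraries (CSDS30 n = 5, CSDS10 n = 5, control n = 3). Prpf8 stands highest, Srsf12 and Snrpn lowest, and the lines of the 3 groups overlap for most genes.

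Between libraries of a group, the spread at these summits was near that of coding genes, whose summits were weaker at the median. The median within-group SD of log2 values was 0.21 for the splicing genes and 0.24 for coding genes. Spread was widest at Prpf38b (0.38), Srsf11 (0.37) and Prpf39 (0.36). Prpf39, a U1-associated protein, averaged 110.1 ± 29.7 in CSDS30, 126 ± 39.3 in CSDS10 and 119 ± 16.0 in control (SD, n = 5, 5 and 3), and its groups overlapped.

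Most summits lay just inside the gene. A start site was listed for 41 of the 49 genes, and 36 summits fell within 500 bp of it, 31 summits being downstream and 10 upstream. The median position was 137 bp downstream of the start. Between 4 and 28 summits lay within 2 kb of a gene, with a median of 10. The strongest summit was shared with another coding gene at 18 of the 49 genes. Examples are Snrpd2 with Qpctl, Snrpd3 with Gucd1, Sf3a1 with Ccdc157, Prpf31 with Tfpt, Prpf4 with Cdc26, Srsf2 with Mfsd11, Snrpn with Snurf and Srsf7 with Gemin6, itself a gene of Sm ring assembly. At such places the mark cannot be assigned to 1 of the genes.

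Promoter windows of 300 bases, most of them upstream of the start (RefSeq, GRCm38.p6), were available for 41 of the 49 genes and for 12148 coding genes with a summit. Letters were searched on both strands, and motifs may overlap. CCGGAAG, the core letters of an ETS site, stood in 18 of 41 windows (43.9%), against 16.5% of coding genes. ATGGCGG, letters of a YY1 site, stood in 7 of 41 (17.1%), against 7.80%. Other motifs were about as common as elsewhere: CCAAT in 39.0% against 38.0%, GGGCGG in 63.4% against 64.6%, TATAAA in 7.32% against 6.96%, CACGTG in 9.76% against 9.74%. The same held for GCATGCG (7.32% against 6.03%), ACTACAA (4.88% against 3.91%) and TGACGTC (7.32% against 5.35%). Windows held a median of 24 CpG against 21, and 60.3% G and C against 61.3%. A match is a run of letters, not a bound site, and none of these shares was tested. CCGGAAG stood in the windows of Sf3a1, Sf3a2 and Sf3a3, the full SF3a trio.

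The 5 promoter windows below show this range of sequence, written 5′ to 3′ on the strand of the gene, with capitals for the searched motifs or their reverse complements. Prpf8 (chr11:75486527-75486826, + strand) is the gene with the most H3K4me3 and Srsf12 (chr4:33209022-33209321, + strand) the one with the least. Sf3a1 (chr11:4160104-4160403, + strand) had the smallest p of the higher genes in both comparisons with control. Prpf4b (chr13:34875279-34875578, + strand) and Snrpf (chr10:93589609-93589908, - strand) were added after their values were seen, as the genes next to Sart3 by p in CSDS30 against control. No window was listed for Sart3 or Snrpb.
Prpf8: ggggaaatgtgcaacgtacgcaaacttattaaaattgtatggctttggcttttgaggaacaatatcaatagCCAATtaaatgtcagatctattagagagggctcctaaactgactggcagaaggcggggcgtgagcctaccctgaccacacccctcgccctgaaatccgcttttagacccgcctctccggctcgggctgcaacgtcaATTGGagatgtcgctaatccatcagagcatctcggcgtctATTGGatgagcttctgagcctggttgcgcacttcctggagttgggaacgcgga
Srsf12: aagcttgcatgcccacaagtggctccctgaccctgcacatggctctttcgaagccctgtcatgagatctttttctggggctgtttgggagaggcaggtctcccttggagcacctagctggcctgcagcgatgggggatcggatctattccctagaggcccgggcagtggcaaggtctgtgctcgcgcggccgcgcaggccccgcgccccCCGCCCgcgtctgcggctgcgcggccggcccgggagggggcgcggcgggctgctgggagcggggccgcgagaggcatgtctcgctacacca
Sf3a1: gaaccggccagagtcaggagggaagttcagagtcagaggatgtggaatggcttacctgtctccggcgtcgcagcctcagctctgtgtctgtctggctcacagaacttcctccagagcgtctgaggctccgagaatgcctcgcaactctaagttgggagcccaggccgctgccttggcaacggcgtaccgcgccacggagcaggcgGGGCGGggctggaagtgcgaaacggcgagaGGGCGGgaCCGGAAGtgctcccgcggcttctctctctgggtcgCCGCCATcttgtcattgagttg
Prpf4b: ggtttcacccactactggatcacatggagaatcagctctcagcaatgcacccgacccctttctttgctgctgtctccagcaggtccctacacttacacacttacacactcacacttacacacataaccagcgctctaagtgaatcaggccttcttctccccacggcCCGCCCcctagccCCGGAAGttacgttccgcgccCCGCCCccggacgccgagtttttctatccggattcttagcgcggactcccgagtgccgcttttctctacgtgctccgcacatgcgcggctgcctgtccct
Snrpf: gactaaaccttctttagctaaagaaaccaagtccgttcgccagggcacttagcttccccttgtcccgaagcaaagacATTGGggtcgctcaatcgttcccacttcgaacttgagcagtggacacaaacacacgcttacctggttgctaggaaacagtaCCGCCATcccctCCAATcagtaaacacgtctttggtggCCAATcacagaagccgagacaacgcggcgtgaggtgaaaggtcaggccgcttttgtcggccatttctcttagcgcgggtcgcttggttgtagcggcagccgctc
Prpf8 has CCAAT letters and neither CCGGAAG nor GGGCGG, and holds 16 CpG. Srsf12 has GGGCGG and 26 CpG. Sf3a1 holds GGGCGG letters together with CCGGAAG letters and with ATGGCGG letters. Prpf4b holds GGGCGG letters and also CCGGAAG letters. Snrpf has CCAAT and ATGGCGG. The strongest summits lay 170 bp (Prpf8), 382 bp (Srsf12), 146 bp (Sf3a1), 341 bp (Prpf4b) and 115 bp (Snrpf) downstream of the starts in these windows.

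At the level of whole libraries, CSDS30 was the lowest group at the splicing genes, and 1 of its libraries stood well below the others. The median over the 49 genes was 116, 92.2, 114, 117 and 114 in CSDS30 replicates 1 to 5. It was 125, 143, 127, 124 and 115 in CSDS10 replicates 1 to 5, and 121, 124 and 123 in control replicates 1 to 3. CSDS30 replicate 2 lay below every other library and CSDS10 replicate 2 above every other. The remaining 4 CSDS30 libraries lay below the 3 control libraries, by a small margin, and CSDS10 overlapped control. Group means of these medians were 110.5 ± 10.4 in CSDS30, 127 ± 9.86 in CSDS10 and 123 ± 1.67 in control (SD, n = 5, 5 and 3). Medians over all coding genes had the same order: 91.6 ± 5.03, 98.0 ± 5.65 and 97.1 ± 0.78 in the same groups. There too every CSDS30 library (82.8 to 94.9) lay below every control library (96.3 to 97.8). The ratio of the splicing genes' median to the coding genes' median was 1.20 ± 0.06 in CSDS30, 1.29 ± 0.05 in CSDS10 and 1.26 ± 0.02 in control. Ratios of CSDS30 (1.11 to 1.27) overlapped those of control (1.24 to 1.28), and the lowest, 1.11, was in CSDS30 replicate 2. The part of that library's wider composition in the splicing gene values was not tested.

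**Figure D2:**
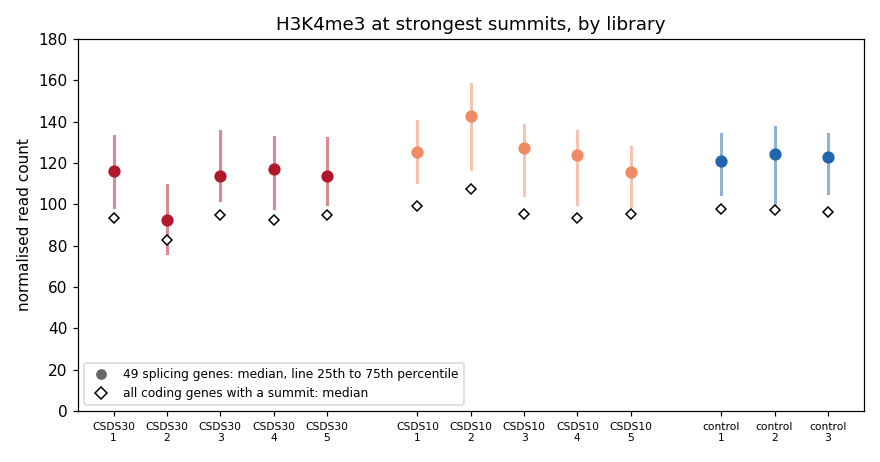
Median normalised read count in each library: filled points are the 49 splicing genes with a line for the 25th to 75th percentile, open diamonds all coding genes with a summit. CSDS30 replicate 2 is lowest (92.2) and CSDS10 replicate 2 highest (143).

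Fold changes were fitted with limma on log2(value + 1) over all 152270 summits kept, with Benjamini-Hochberg adjustment over all of them at a threshold of 0.05. In CSDS30 against control, no splicing gene passed (0 of 49), nor did any summit of the whole table (0 of 152270, 0.0%). At an unadjusted p under 0.05 limma gave 5194 summits (3.41%), and edgeR (4933) and DESeq2 (5753) likewise called none after adjustment. Of the 49 genes, 37 had a log2 fold change below 0 (75.5%), against 65.9% of coding genes, and 12 one above 0, against 34.1%. Their median was -0.14, against -0.07 for coding genes. Limma's adjusted p was 1.00 for each of the 49 genes in both comparisons with control, and 0.963 or more in CSDS30 against CSDS10. Without CSDS30 replicate 2 these medians were -0.06 and -0.04, and 33 genes were below 0, beside 9180 of 15201 coding genes. With loess scaling they were -0.05 and -0.01, with 29 genes below 0 and 20 above, beside 7819 and 7382 coding genes. Under that scaling 2 splicing genes were lower and 1 higher at an unadjusted limma p under 0.05, beside 306 and 319 coding genes. Limma's unadjusted p was under 0.05 and the value lower at 3 genes, Sart3, Prpf4b and Snrpf (6.12% of 49; background 4.41%), and at none on the higher side (background 0.5%). Leaving out single libraries gave 2 to 8 lower genes, beside a coding gene count that moved too, from 670 of 15201 with all libraries. It was 8 genes without CSDS30 replicate 1 (786 coding genes), and 2 without CSDS30 replicate 2 (341) or control replicate 2 (412). It was 6 without CSDS30 replicate 4 (589), CSDS30 replicate 5 (975) or CSDS10 replicate 2 (854), and 5 without control replicate 1 (657). The libraries of CSDS30 all lay below those of control at 3 genes, Sart3 and Prpf4b among them (6.12%; background 3.11%), and above at none (background 0.585%).

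In CSDS10 against control, no splicing gene passed either (0 of 49, with 0 of 152270 summits, 0.0%; 4891 summits, 3.21%, at an unadjusted limma p under 0.05, and 0 called by edgeR, with 4599, and by DESeq2, with 5410). Of the genes, 31 lay above 0 (63.3%; 53.3% of coding genes) and 18 below (36.7%; 46.7%). The median log2 fold change was 0.04, against 0.01 for coding genes. It was -0.02 without CSDS10 replicate 2, with 23 genes above 0 and 26 below, beside 7070 and 8131 coding genes (median -0.015). Without control replicate 1 it was about 0, with 24 above and 25 below, beside 7932 and 7269 coding genes (median 0.01). Sf3a1 alone was at an unadjusted limma p under 0.05 on the higher side (2.04%, background 1.78%), and no gene on the lower side (background 1.03%). Without control replicate 3, 0 genes were on the higher side at that level, beside 169 of 15201 coding genes. At no gene were the groups apart, against 1.65% of coding genes higher and 1.22% lower.

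CSDS30 against CSDS10 gave no call in limma (0 of 49 genes, 0 of 152270 summits, 0.0%; 7795 summits, 5.12%, at an unadjusted p under 0.05, and 0 called by edgeR, with 6838, and by DESeq2, with 7795). Here 40 genes lay below 0 (81.6%; 68.4% of coding genes) and 9 above (18.4%; 31.6%), and the median was -0.14, against -0.08. An unadjusted limma p under 0.05 with a lower value was found at 10 genes (20.4%; background 9.03%) and with a higher value at none (background 0.704%). The 10 were Sart3, Snrpf, Sf3b4, Srsf10, Prpf4b, Srsf11, Snrpe, Sart1, Prpf38b and Snrpd3. Leaving out single libraries gave 5 to 12 such genes, beside a coding gene count that moved too, from 1373 of 15201 with all libraries. Their number was 5 without CSDS30 replicate 2 (756 coding genes), and 6 without CSDS10 replicate 2 (870) or CSDS10 replicate 3 (1384). It was 11 without CSDS10 replicate 5 (1401) and 12 without CSDS10 replicate 4 (1567). Without both replicates numbered 2, a setting chosen after seeing the data, it was 2 (549). With loess scaling the number was 6 (492 coding genes), with Prpf8 higher (365). Under that scaling 31 genes lay below 0 and 18 above, beside 7638 and 7563 coding genes. Scaling to equal totals gave 7 lower genes (1054 coding genes). At no gene were the groups apart (background 1.01% lower, 0.112% higher). The 3 comparisons share libraries, so their counts are not independent.

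The precision bounds what could have been seen. The 95% interval of a log2 fold change reached, at the median, 0.31 to either side in both comparisons with control and 0.27 in CSDS30 against CSDS10. All 49 intervals lay inside -1 to 1 in each comparison, so that a 2-fold difference in either direction lay outside the interval at every one of these summits.

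**Figure D3:**
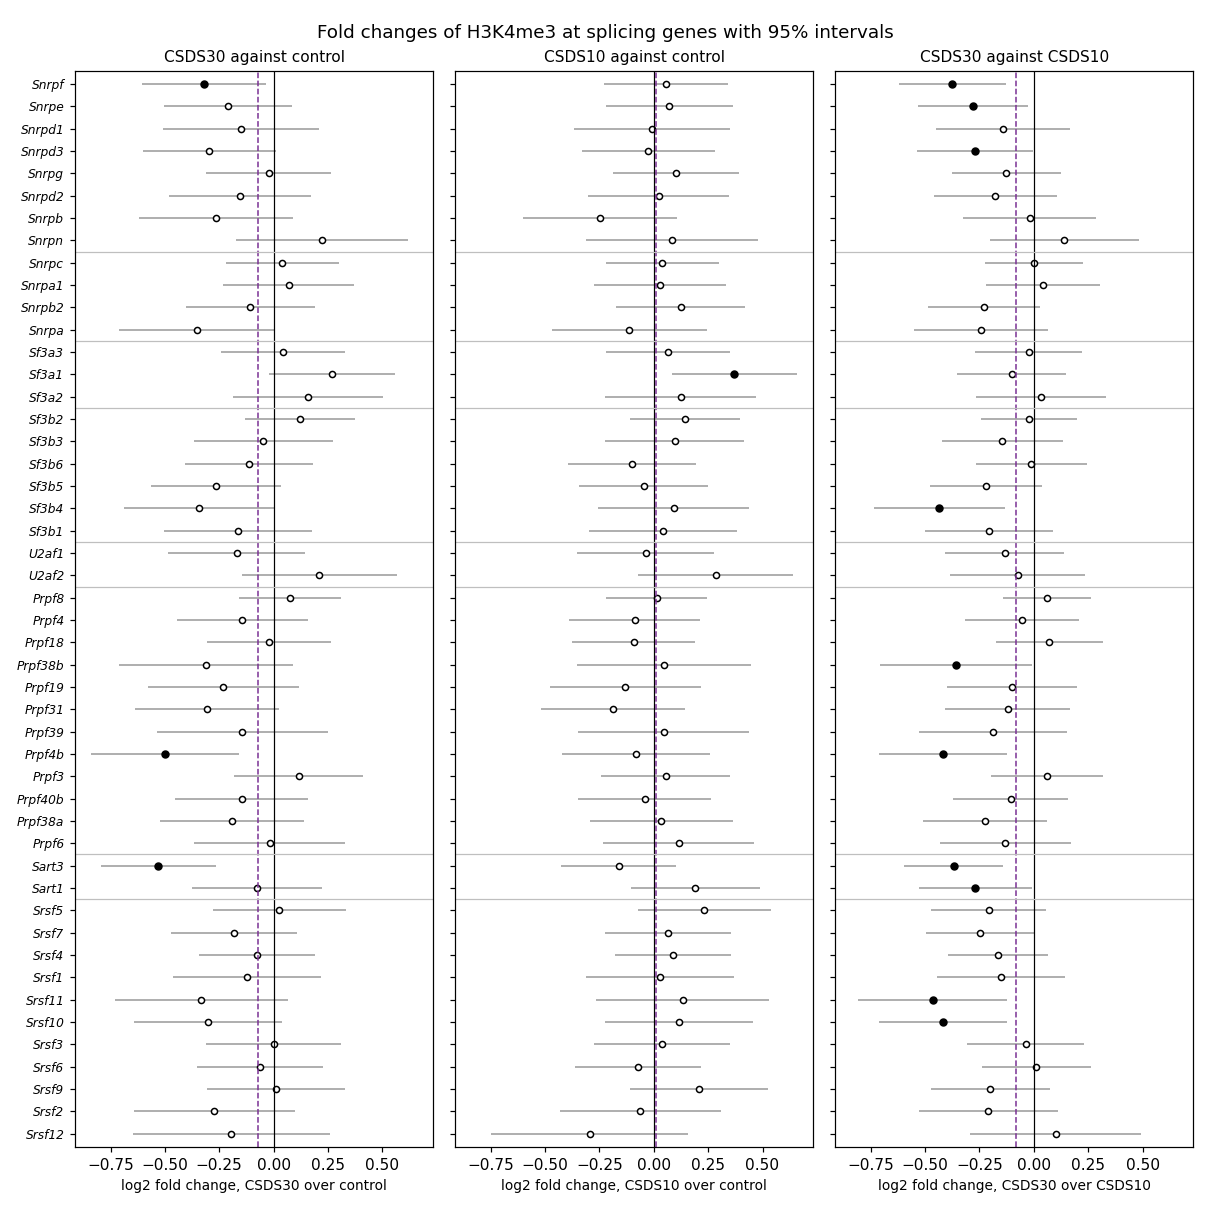
Log2 fold change of 48 of the 49 splicing genes with its 95% interval from limma, in CSDS30 over control, CSDS10 over control and CSDS30 over CSDS10. Filled points have an unadjusted p under 0.05, none passed after adjustment, and the dashed line is the median of all coding genes. Points lie mostly left of 0 in the comparisons with CSDS30 on top.

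The ring of Sm proteins, which every spliceosomal particle except U6 carries, is covered by 8 genes. In CSDS30 against control 7 of the 8 lay below 0 (median log2 fold change -0.18, beside 65.9% of coding genes below 0). In CSDS10 against control 3 of 8 did (median 0.04, beside 46.7%). Snrpf (chr10:93589543-93589544, mm10) encodes SmF and had 143, 109, 161, 153 and 146 units in CSDS30, 177, 236, 176, 181 and 156 in CSDS10, and 149.5, 206 and 179 in control. CSDS30 replicate 2 was the lowest library and CSDS10 replicate 2 the highest, and the groups overlapped. The means were 142 ± 19.8, 185 ± 29.8 and 178 ± 28.2 in CSDS30, CSDS10 and control. The log2 fold change was -0.32 ± 0.14 (SE; limma adjusted p = 1.00) in CSDS30 against control and -0.38 ± 0.12 (limma adjusted p = 0.963) in CSDS30 against CSDS10. Without CSDS30 replicate 2 the first was -0.23, and without both replicates numbered 2 the second was -0.19, neither at an unadjusted limma p under 0.05.

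Snrpb, the gene of SmB, had 107, 70.3, 107, 89.8 and 87.7 in CSDS30, 85.3, 123, 72.5, 96.6 and 92.7 in CSDS10, and 116, 91.2 and 126 in control. Control was the highest group on average, and the groups overlapped. In CSDS10 against control it had the smallest p of the genes on the lower side, at -0.25 ± 0.17 (SE). This value ran from -0.38 without control replicate 2 to -0.15 without control replicate 3, and was -0.35 without CSDS10 replicate 2, then at an unadjusted limma p under 0.05. Summed over all summits it was -0.003. Snrpe and Snrpd3 lay lower in CSDS30 than in CSDS10, with means of 121 in CSDS30 against 146 in CSDS10 for Snrpe, and 106 in CSDS30 against 127 in CSDS10 for Snrpd3, neither passing adjustment. Snrpg, Snrpd1 and Snrpd2 lay between -0.16 and -0.02 in CSDS30 against control.

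Snrpn encodes SmN, which takes the place of SmB in neurons, and lies in an imprinted region where the paternal copy is the active one. Its strongest summit (chr7:60004247-60004248), shared with Snurf, lay 952 bp downstream of the listed start. The window at that start had 7 CpG, as had the window of Snrpa1, whose mean was 121. It had 62.6, 57.8, 71.5, 55.6 and 93.5 units in CSDS30, 61.5, 52.2, 57.4, 61.0 and 73.2 in CSDS10, and 61.5, 55.6 and 55.0 in control. Replicate 5 was the highest library in both defeated groups, and all groups overlapped. It was the only Sm gene above 0 in CSDS30 against control, at 0.22 ± 0.19 (SE), and 0.10 without CSDS30 replicate 5.

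The proteins specific to U1 (Snrpa and Snrpc) and to U2 (Snrpa1 and Snrpb2) were at 138 ± 7.95 for Snrpc and 83.8 ± 22.1 for Snrpa at the 2 ends in CSDS30. Snrpa, which binds a stem-loop of U1 RNA, had 96.3, 57.8, 67.3, 113 and 84.8 in CSDS30, 96.8, 87.5, 93.2, 99.9 and 107 in CSDS10, and 97.1, 114 and 103 in control. CSDS30 replicates 2 and 3 were the lowest libraries, and replicate 4 lay among the controls. The log2 fold change in CSDS30 against control was -0.35 ± 0.18 (SE), -0.23 without CSDS30 replicate 2, and -0.0074 summed over all summits. Snrpc was near 0 in all 3 comparisons (0.04, 0.04 and 0.00).

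SF3a, the trimer that joins U2 to the branch site, was the one role in which every gene lay above 0 in both comparisons with control. Of coding genes, 34.1% lay above 0 in CSDS30 and 53.3% in CSDS10 against control. Sf3a1 (chr11:4160500-4160501), which contacts U1 as well as U2, had 140.2, 127, 115, 117 and 112 in CSDS30, 129.6, 143, 136, 122 and 124 in CSDS10, and 126, 97.3 and 83.7 in control. Control replicates 2 and 3 lay below all defeated libraries, while control replicate 1 lay among them. Means were 122 ± 11.6, 131 ± 8.39 and 102 ± 21.5 in CSDS30, CSDS10 and control. In CSDS10 against control the log2 fold change was 0.37 ± 0.14 (SE; limma adjusted p = 1.00), with a range from 0.24 without control replicate 3 to 0.53 without control replicate 1. In CSDS30 against control it was 0.27 ± 0.14 (SE), 0.14 without control replicate 3, and 0.36 with loess scaling, then at an unadjusted limma p under 0.05. Sf3a2 (0.16 and 0.12) and Sf3a3 (0.04 and 0.07) gave smaller values in CSDS30 and in CSDS10 against control. The 2 comparisons share the control libraries.

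SF3b, which cradles the branch-site helix, has 6 genes, among them Sf3b1, the subunit whose human counterpart is recurrently mutated in myeloid neoplasms. All 6 lay below 0 in CSDS30 against CSDS10 (median -0.18, beside 68.4% of coding genes), and 5 of 6 in CSDS30 against control (median -0.14, beside 65.9%). Sf3b4 (chr3:96172670-96172671), shared with Mtmr11, had 109, 78.1, 73.6, 121 and 105 in CSDS30, 137, 164, 92.2, 125 and 139.9 in CSDS10, and 113, 124 and 127 in control. CSDS30 replicates 2 and 3 were the lowest libraries, and CSDS10 replicate 3 overlapped CSDS30. The log2 fold change was -0.43 ± 0.15 (SE; limma adjusted p = 0.963) in CSDS30 against CSDS10 and -0.34 ± 0.17 in CSDS30 against control. Summed over all its summits the first was -0.03, and without both replicates numbered 2 it was -0.28. Without CSDS30 replicate 2 the second was -0.27. Neither the -0.28 nor the -0.27 was at an unadjusted limma p under 0.05.

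Sf3b2 was the 1 gene of SF3b above 0 in CSDS30 against control, with 186, 144, 175, 163 and 145 in CSDS30, 155, 143, 188, 164 and 173 in CSDS10, and 154, 137 and 154 in control. The groups overlapped, and the difference was 0.12 ± 0.12 (SE) in CSDS30 against control. Sf3b1 averaged 103 ± 19.5 in CSDS30, 118 ± 22.7 in CSDS10 and 114 ± 10.1 in control, and CSDS30 replicate 2 (71.9) was its lowest library.

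The U2AF pair differed in level. U2af1, which reads the AG at the end of the intron, averaged 132 ± 25.8 in CSDS30, 144 ± 21.0 in CSDS10 and 147 ± 17.9 in control. U2af2 had 69.7, 92.2, 117, 82.1 and 87.0 in CSDS30, 82.8, 119, 81.0, 88.1 and 99.2 in CSDS10, and 79.0, 64.3 and 87.1 in control. It spread over 28 summits, the most of any gene here, and its groups overlapped. The log2 fold change of U2af2 was 0.21 ± 0.18 (SE) in CSDS30 and 0.28 ± 0.18 in CSDS10 against control, with 0.01 and 0.10 when all summits were summed. Without control replicate 2 the values were 0.089 in CSDS30 and 0.16 in CSDS10 against control.

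The Prpf genes (13) span the tri-snRNP, U1-associated proteins and the Prp19 complex. Of these, 11 lay below 0 in CSDS30 against control (median -0.15, beside 65.9% of coding genes) and 7 in CSDS10 against control (median -0.04, beside 46.7%). Prpf4b (chr13:34875870-34875871) encodes a kinase of tri-snRNP proteins. It had 100.2, 62.5, 90.4, 86.4 and 81.9 in CSDS30, 126, 147, 108, 93.2 and 92.7 in CSDS10, and 119, 113 and 123 in control. Every CSDS30 library lay below every control library, and CSDS10 reached into both groups. Means were 84.3 ± 13.9, 113 ± 23.2 and 118 ± 4.89 in CSDS30, CSDS10 and control. The log2 fold change was -0.50 ± 0.17 (SE; limma adjusted p = 1.00) in CSDS30 against control and -0.42 ± 0.14 (limma adjusted p = 0.963) in CSDS30 against CSDS10. Without CSDS30 replicate 2 the first was -0.40, and summed over all summits of the gene it was -0.14. Without both replicates numbered 2 the second was -0.22, not at an unadjusted limma p under 0.05.

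Prpf8 (chr11:75486947-75486948) had 178, 242, 221, 198 and 217 in CSDS30, 205, 196, 194, 188 and 225 in CSDS10, and 225, 176 and 199 in control. The groups overlapped, and CSDS30 replicate 2, the lowest library at Snrpf and Prpf4b, was here the highest. Log2 fold changes were 0.08 ± 0.11, 0.01 ± 0.11 and 0.06 ± 0.10 (SE) in CSDS30 against control, CSDS10 against control and CSDS30 against CSDS10, the last 0.22 with loess scaling, then at an unadjusted limma p under 0.05.

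Prpf31, a U4/U6 protein whose human counterpart is mutated in retinitis pigmentosa, had 109.6, 98.4, 139.9, 139 and 88.4 in CSDS30, 137, 90.3, 129, 144 and 123 in CSDS10, and 150.2, 153 and 120.4 in control. Its groups overlapped, with -0.31 ± 0.16 (SE) in CSDS30 and -0.19 ± 0.16 in CSDS10 against control. The value in CSDS10 ran from -0.30 without control replicate 3 to -0.078 without CSDS10 replicate 2, and was -0.037 summed over all summits. Prpf18, a factor of the second splicing step, had 168, 111, 150.4, 142 and 141 in CSDS30, 140.3, 158, 134, 110.1 and 133 in CSDS10, and 147, 129 and 154 in control. It was close to level, at 0.07 ± 0.12 (SE) in CSDS30 against CSDS10.

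Prpf38b averaged 111 ± 30.5 in CSDS30, 139 ± 27.4 in CSDS10 and 134 ± 23.4 in control, with CSDS30 replicate 2 at 57.8. Prpf4 averaged 151 ± 23.1, 158 ± 32.0 and 165 ± 6.88, and Prpf6 85.0 ± 11.3, 94.2 ± 19.7 and 85.6 ± 4.99, in CSDS30, CSDS10 and control.

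The strongest summit of Sart3, the factor that brings U4 and U6 together again after splicing, is also the strongest of Iscu, the scaffold protein of iron-sulfur cluster assembly. This summit (chr5:113771525-113771526) lay inside Sart3, 875 bp from its boundary facing Iscu, and 893 bp from the near boundary of Iscu (113772418). It had 138, 103, 117, 133 and 143 units in CSDS30, 188, 138, 164, 164 and 163 in CSDS10, and 168, 195 and 185 in control. Every CSDS30 library lay below every control library, and CSDS10 replicate 2 alone of its group fell among CSDS30. The difference from control, -0.53 ± 0.13 (SE; limma adjusted p = 1.00) in CSDS30, was -0.16 ± 0.13 in CSDS10. CSDS30 stood at -0.37 ± 0.11 (limma adjusted p = 0.963) against CSDS10, and at -0.36 without both replicates numbered 2. Summed over all summits within 2 kb of Sart3, CSDS30 was at -0.18 against control. Sart1, a tri-snRNP protein, averaged 114 ± 13.2 in CSDS30, 139 ± 22.8 in CSDS10 and 121 ± 13.2 in control.

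**Figure D4:**
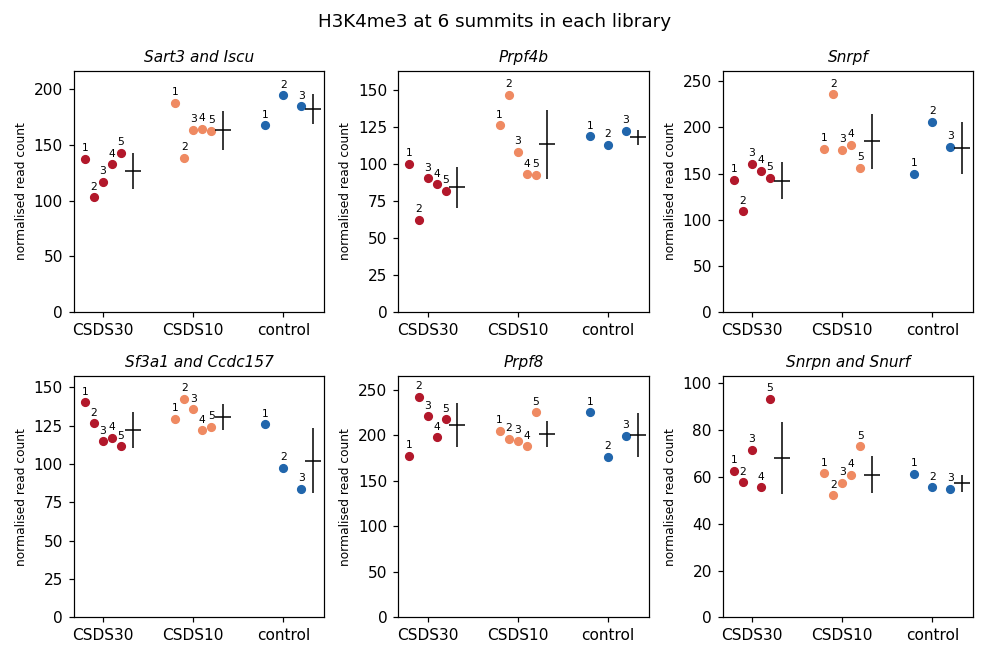
Normalised read count in every library at the summits of Sart3 with Iscu, Prpf4b, Snrpf, Sf3a1 with Ccdc157, Prpf8, and Snrpn with Snurf. Points carry the replicate number, and bars give the mean and SD of each group (CSDS30 n = 5, CSDS10 n = 5, control n = 3). All CSDS30 points lie below all control points at the summits of Sart3 and Prpf4b only.

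Neighbouring summits were listed around Sart3, Prpf4b, Snrpf and Sf3a1. The central summits are the strongest of each gene and were at an unadjusted limma p under 0.05 in a comparison with control. Smaller differences at neighbours could come from that choice alone, and how local the differences are was not tested. Around the Sart3 summit 15 others lay within 2 kb, and 14 of them had a log2 fold change below 0 in CSDS30 against control, from -0.35 to 0.23 with a median of -0.15 and none at a limma p under 0.05. The closest, 188 bp toward lower coordinates, averaged 108 ± 23.3 in CSDS30 and 116 ± 8.63 in control (-0.13 ± 0.16, SE), and the next, 254 bp the other way, 37.2 ± 12.8 in CSDS30 and 36.0 ± 6.93 in control. At Prpf4b the neighbour 210 bp toward lower coordinates lay lower as well, with 68.1 ± 14.7 in CSDS30, 94.5 ± 17.7 in CSDS10 and 106 ± 6.94 in control. Its log2 fold change in CSDS30 against control was -0.65 ± 0.18 (SE; 1 of 12 neighbours at a limma p under 0.05), while the neighbour 185 bp the other way was at -0.10 ± 0.17. Around Snrpf, 4 of 6 neighbours lay above 0 in CSDS30 against control, and around Sf3a1 5 of 7 did in CSDS10 against control, none of them at a limma p under 0.05. Summing all summits within 2 kb gave smaller values: -0.06 for Snrpf in CSDS30 against control, -0.14 for Snrpf, -0.11 for Srsf10 and -0.08 for Sart3 in CSDS30 against CSDS10, and 0.16 for Sf3a1 in CSDS10 against control. Reads of 1 nucleosome can fall on more than 1 summit, so neighbours are not independent.

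**Figure D5:**
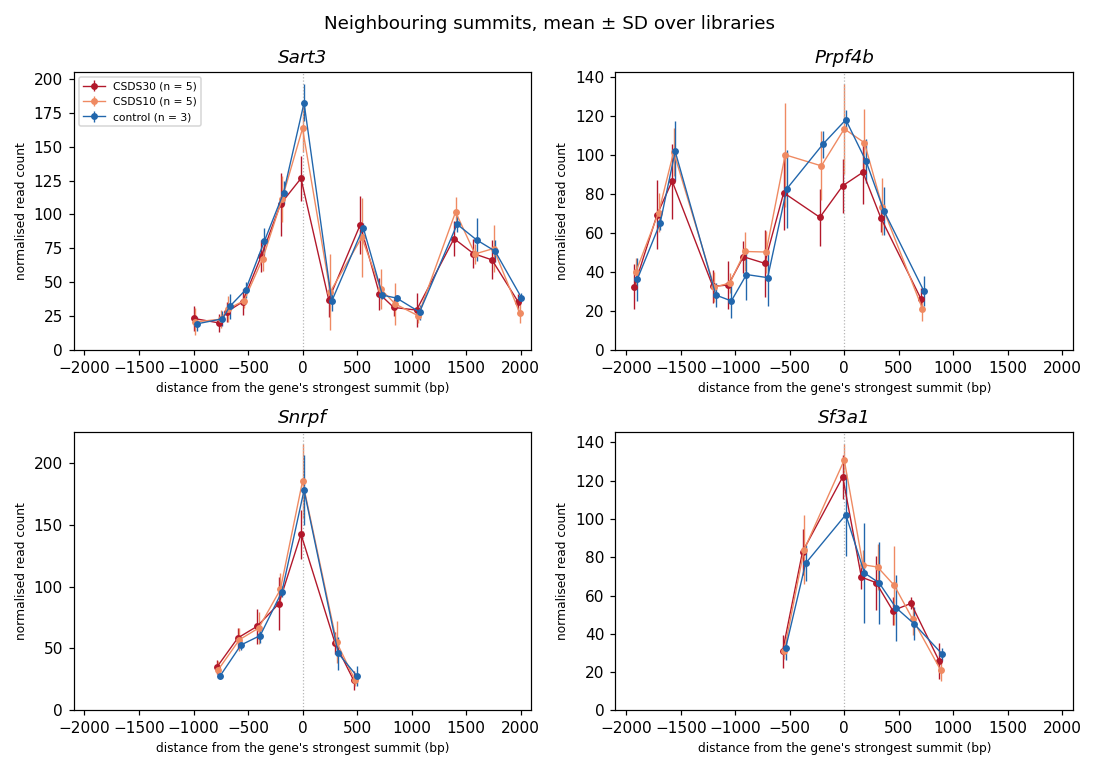
Mean normalised read count at all summits within 2 kb of the strongest summits of Sart3, Prpf4b, Snrpf and Sf3a1, by distance in bp toward higher coordinates (groups are shifted sideways slightly, lines are 1 SD; CSDS30 n = 5, CSDS10 n = 5, control n = 3). The mean of CSDS30 lies below that of control at the centre for Sart3, Prpf4b and Snrpf and above it for Sf3a1. The SD lines of CSDS30 and control overlap at the centre for Snrpf and for Sf3a1.

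The SR proteins (11 genes), whose phosphorylated tails bring the splicing machinery to exons, had no member at an unadjusted limma p under 0.05 in either comparison with control. Of the 11, 9 were below 0 in CSDS30 against control (median -0.12; 65.9% of coding genes) and 9 in CSDS30 against CSDS10 (median -0.20; 68.4% of coding genes), with 2 at that level in the second, Srsf10 and Srsf11. In CSDS10 against control 8 were above 0 (median 0.07; 53.3% of coding genes). Srsf10, a splicing repressor when dephosphorylated, had 116, 74.97, 102, 83.8 and 114 in CSDS30, 148, 139.7, 104, 127 and 133 in CSDS10, and 89.4, 136 and 139.8 in control. CSDS10 replicate 3 and control replicate 1 overlapped CSDS30. The log2 fold change was -0.42 ± 0.14 (SE; limma adjusted p = 0.963) in CSDS30 against CSDS10, and -0.30 without both replicates numbered 2.

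Srsf11 had 124, 49.98, 117, 113 and 109 in CSDS30, 143, 148, 145, 115 and 128 in CSDS10, and 121, 144 and 108 in control. CSDS30 replicate 2 stood far below the rest, and the other libraries of the 3 groups overlapped. The distance of CSDS30 from CSDS10, -0.46 ± 0.17 (SE; limma adjusted p = 0.963), was -0.23 without CSDS30 replicate 2, then no longer at an unadjusted limma p under 0.05. Srsf5 had 124, 112, 188, 121 and 142 in CSDS30, 182, 184, 138, 158 and 128 in CSDS10, and 140.4, 131 and 127 in control. It was at 0.23 ± 0.15 (SE) in CSDS10 against control, with overlapping groups. Srsf9 had 96.3, 87.5, 91.5, 106 and 107 in CSDS30, 102, 93.2, 128, 136 and 107 in CSDS10, and 114, 97.3 and 81.4 in control. Its 0.21 ± 0.16 (SE) in CSDS10 against control was 0.09 without control replicate 3.

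Srsf12, the weakest site, had 48.5, 65.6, 63.1, 57.3 and 73.9 in CSDS30, 77.1, 70.6, 51.8, 33.9 and 62.6 in CSDS10, and 56.6, 74.7 and 81.4 in control. Libraries of all groups were mixed, and the log2 fold change was -0.29 ± 0.22 (SE) in CSDS10 against control, and -0.11 without CSDS10 replicate 4. Among the archetypal SR proteins, Srsf1 stood at -0.12 and Srsf2 at -0.27 in CSDS30 against control, and Srsf3 had means of 114 ± 16.9 in CSDS30 and 113 ± 10.7 in control.

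Further genes of the pathway, 158 outside the symbol rule, were taken by name in 10 lists (U1, U2 and U5 proteins, LSm ring, helicases, tri-snRNP and step factors, Prp19 complex, particle assembly, exon junction and SR-related proteins, SR kinases, hnRNPs, neuronal splicing regulators), and 157 had a summit. None passed in limma. In CSDS30 against control 103 lay below 0 and 54 above (median -0.07; 65.9% of coding genes below, median -0.07), 9 at an unadjusted limma p under 0.05 on the lower side and 0 on the higher (background 4.41% and 0.5%). In CSDS10 against control 45 lay below and 112 above (median 0.07; 53.3% of coding genes above, median 0.01), with 0 lower and 4 higher at that level (background 1.03% and 1.78%). In CSDS30 against CSDS10 136 lay below and 21 above (median -0.13; 68.4% of coding genes below, median -0.08), with 27 lower and 0 higher (background 9.03% and 0.704%). The counts at that level per list were at most 2 lower genes in CSDS30 against control, reached by the helicases. The hnRNPs all lay below 0 in CSDS30 against CSDS10 (20 of 20, 2 of them at an unadjusted limma p under 0.05). So did the 15 exon junction and SR-related genes, beside 68.4% of coding genes (9.03% at that level). Whether either list differs from coding genes was not tested.

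In CSDS30 against control the genes with the smallest p in these lists were Usb1, the exonuclease that trims U6 RNA, and Snu13, a protein bound to U4. Usb1, whose summit is shared with Zfp319, was at -0.61 ± 0.16 (SE; limma adjusted p = 1.00) in CSDS30 and -0.27 ± 0.16 in CSDS10 against control. Snu13 averaged 97.2 ± 15.7 in CSDS30, 120.5 ± 13.6 in CSDS10 and 135 ± 13.2 in control, at -0.48 ± 0.15 (SE) in CSDS30 against control. On the higher side were Bud13 (0.20 ± 0.15) and Snrnp27 (0.20 ± 0.15) in CSDS30 against control, neither under that level. In CSDS10 against control Lsm4, of the ring on U6, was at 0.51 ± 0.16 (SE), Yju2, a first-step factor, at 0.54 ± 0.20, and Srrm3, a regulator of neuronal microexons, at -0.35 ± 0.23. The neuronal splicing regulators had the lowest levels, with a median of 78.1 units, against 111 to 124 for the other lists.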

How the data were processed

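Mononucleosomes from micrococcal nuclease digestion were precipitated with an H3K4me3 antibody and sequenced single-end (100 bp), and all libraries carry 1 batch date, per the labels. Trimmomatic, Bowtie2, MACS2 and DESeq2 and the builds mm10 and GRCm38.p5 appear in the submitters' processing notes. Of their versions, roles and counting window, nothing was given in the sources used here. Per summit, the deposited values are a signal: the authors' read counts divided by a size factor per library. The score columns deposited by the authors were not tested. Every value (100% per library, tolerance 0.001 reads) was a whole multiple of the library's smallest step, so reads could be recovered; edgeR on those reads called 0 summits. The input library was not analysed here.

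Summits were tied to RefSeq genes (GRCm38.p6) within 2 kb, a summit inside a gene being at distance 0. Differences were fitted with limma 3.58.1 (R 4.3.3; trend) on log2(value + 1) over 13 libraries; 152270 summits passed the edgeR filter on low reads and 937 did not, and p-values were Benjamini-Hochberg adjusted over those kept. The log2(value + 1) scale slightly understates changes of low sites. Values given with ± are mean and SD, or log2 fold change and SE where so named. Alternatives were edgeR 4.0.16, DESeq2 1.42.0, other scalings, filters, pseudocounts and distances, sums over summits, a term for the replicate number as block, and fits that each leave out 1 library. The code was tested on simulated data. Named with all library values were the 4 genes of smallest p in each direction and comparison, plus Sart3 and Snrpn; named with means were the 4 highest, the 4 lowest and the 3 of widest spread. Srsf11 is also given by library, and others by mean, chosen after their values were seen. The fits and counts cover all 49 genes, but 1 of them is not reported here by name. Genes and lists were chosen with earlier results of these data known, the Sart3 and Iscu summit among them. Counting intervals would cover counting error only, since reads carry no molecular identifiers.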

Additional observations from a re-analysis of the deposited data

Results flagged for a closer look

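In 2 of 44 groups of 5 libraries tested, 1 library stood far from the others, where chance gives about 1 in 20 for genes not chosen by spread. Prpf38b and Srsf11, the genes of these cases, were named for their wide spread in the same values, so that rate does not hold for them. Both cases are CSDS30 replicate 2. At Prpf38b it had 57.8 units, against 113 to 132 in the other CSDS30 libraries, a gap of 0.739 of the whole range (critical value 0.71). At Srsf11 it had 49.98 units, against 109 to 124, a gap of 0.806 of the range. This library also had the lowest spread of log2 values over all summits (SD 0.875). Its part in these values was not tested.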

How the results depend on the processing

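Over 40 results and 30 alternatives, no summit passed after adjustment under any alternative, and the direction of single genes turned in 5 cases, all of them values that did not pass. Summing all summits within 2 kb gave -0.031 for Sf3b2 in CSDS30 against control, and -0.022 for Prpf8, -0.016 for Snrpn and -0.057 for Srsf12 in CSDS30 against CSDS10; leaving out 1 library at a time, Srsf12 ran from -0.084 (without CSDS10 replicate 4) to 0.21. The causes were not tested. Leaving out 1 library at a time, the median of the 49 genes ran from -0.16 to -0.06 in CSDS30 against control, from -0.02 (without CSDS10 replicate 2; just under 0 without control replicate 1) to 0.07 in CSDS10 against control, and from -0.18 to -0.09 in CSDS30 against CSDS10. The other alternatives gave -0.15 to -0.03, -0.02 (without both replicates numbered 2) to 0.06, and -0.17 to -0.04. Measuring distance from gene boundaries left 48 genes, with no value for Snrpn. Deviations of same-numbered libraries correlated at r from -0.29 to 0.37 (median -0.05, over 11 pairs). For other pairs across groups r ran from -0.43 to 0.38 (median 0.02, over 44 pairs), and 2 of 13 libraries correlated best with their own number. Whether same-numbered libraries shared a cohort or a preparation cannot be told from these correlations. With the number as a replicate block, 0 summits were called. In CSDS30 against control, CSDS10 against control and CSDS30 against CSDS10 the medians were -0.10, 0.04 and -0.14. At an unadjusted limma p under 0.05, 4, 0 and 7 genes were lower, beside 511, 179 and 1171 of 15201 coding genes. On the higher side there were 1, 1 and 0 genes, beside 80, 263 and 96 coding genes. Depth limits single sites: 1 read was worth up to 1.69 units.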
